A study of Hydra vulgaris with 36 samples.

Results

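The genes nb001 (listed in the count table as '100210783') and nb012 (listed as '100206840') of the freshwater polyp Hydra vulgaris were followed through tentacle libraries of every treatment. They are 2 of the 22608 genes in the count table and were picked by identifier as genes of nematoblasts, the differentiating precursors of the stinging cells. Both were picked with their behaviour in these libraries known, so their levels and fold changes are given as a description, with standard errors and without a test. Other genes of the same lineage, found by name and listed with earlier results of these data known, were tested.

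Stinging cells, or nematocytes, are the cells with which Hydra catches prey. They arise from interstitial stem cells. In the body column, nests of nematoblasts build the nematocyst, a capsule with a coiled tubule assembled inside a secretory vesicle. Mature nematocytes then migrate to the tentacles and are mounted there in the epithelial battery cells, so a tentacle holds many finished stinging cells and few dividing or differentiating precursors. Transcripts of the nb series are used as marks of the differentiation phase. What the products of nb001 and nb012 do was not given in the sources used here.

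All animals were of strain Hm_105, labelled wild type, and were electroporated 3 times, with small interfering RNA (siRNA) at 1.35 µM. Tentacles were collected 7 days after the last of these, and tissue from treatments of 20 to 30 animals was pooled. Libraries came from tentacles at their normal place, called original, and from tentacles at other places, called ectopic. A first set of 25 libraries held ectopic tentacles of Sp5 RNAi animals (n = 3), distal and proximal parts of original tentacles of Sp5 RNAi animals (n = 3 each), distal and proximal parts of original tentacles of Zic4 RNAi animals (n = 4 each) and the same parts of mock RNAi animals (n = 4 each). A second set of 11 libraries came from Zic4/Sp5 RNAi animals, with ectopic and with original tentacles (n = 4 each), and from original tentacles of mock RNAi animals (n = 3). Each set was compared with its own mock libraries. Zic4 and Sp5 are transcription factors, and the study asks, by its title, about tentacle formation and the identity of epithelial cells. The depth of each knockdown is not analysed here.

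The deposited totals per library lay between 2.04 and 13.28 M counts, M standing for mega. The 10 most abundant genes took 9.24% to 23.1% of a library. Every one of the 48 within-group pairs of libraries differed beyond the sampling noise of its counts. The labels do not say that libraries of one group came from separate cultures, so p-values and standard errors measure the spread between these libraries. Levels are CPM, counts scaled to a library size of 1 M, after TMM scaling, which sets libraries to a common scale by their unchanged majority of genes. CPM is not corrected for transcript length, so levels are compared between libraries for one gene and not between genes. In bulk tissue, fewer cells of a type and less RNA per cell cannot be told apart. Where libraries of compared groups did not overlap in a gene's level, the share of all genes doing so was not counted.

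The ectopic tentacles of Sp5 RNAi animals held nb001 at 441, 3478 and 5165 CPM. In original tentacles of the same treatment, nb001 was at 12, 13.8 and 14.0 CPM in proximal parts and at 5.04, 9.75 and 8.37 CPM in distal parts. In mock animals it was at 30.9, 211, 39.7 and 16.8 CPM in proximal parts and at 1.92, 3.56, 3.91 and 28.6 CPM in distal parts. The lowest ectopic library, replicate 1, lay above the highest of the 14 Sp5 RNAi and mock libraries of divided tentacles. The mean was 3028 ± 2394 CPM (SD, n = 3) in ectopic tentacles and 42.1 CPM over the 8 mock libraries. The log2 fold change was 6.93 (standard error 1.16) against the mean of the mock parts and 8.22 (standard error 1.37) against the mean of the Sp5 RNAi parts. Of 14442 genes tested, 35.3% were called at an edgeR adjusted p under 0.05 against the mock parts and 26.8% against the Sp5 RNAi parts, so many genes differed in these contrasts.

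nb012 was at 12.2, 105 and 100.3 CPM in the ectopic tentacles of Sp5 RNAi animals. In original tentacles of this treatment it was at 7.89, 9.10 and 10.8 CPM in proximal parts and at 4.94, 7.34 and 4.88 CPM in distal parts. In mock animals nb012 was at 12, 29.7, 16.3 and 14.7 CPM in proximal parts and at 6.26, 7.5, 4.97 and 2.60 CPM in distal parts. Ectopic replicate 1 thus lay inside the mock range for nb012, while the other 2 ectopic libraries lay above it, and all 3 lay above the Sp5 RNAi parts. The log2 fold change of nb012 was 2.85 (standard error 0.42) against the mock parts, with 72.7 ± 52.4 CPM (SD, n = 3) in ectopic tentacles and 11.8 CPM over the 8 mock libraries. Against the Sp5 RNAi parts it was 3.31 (standard error 0.46).

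**Figure D1:**
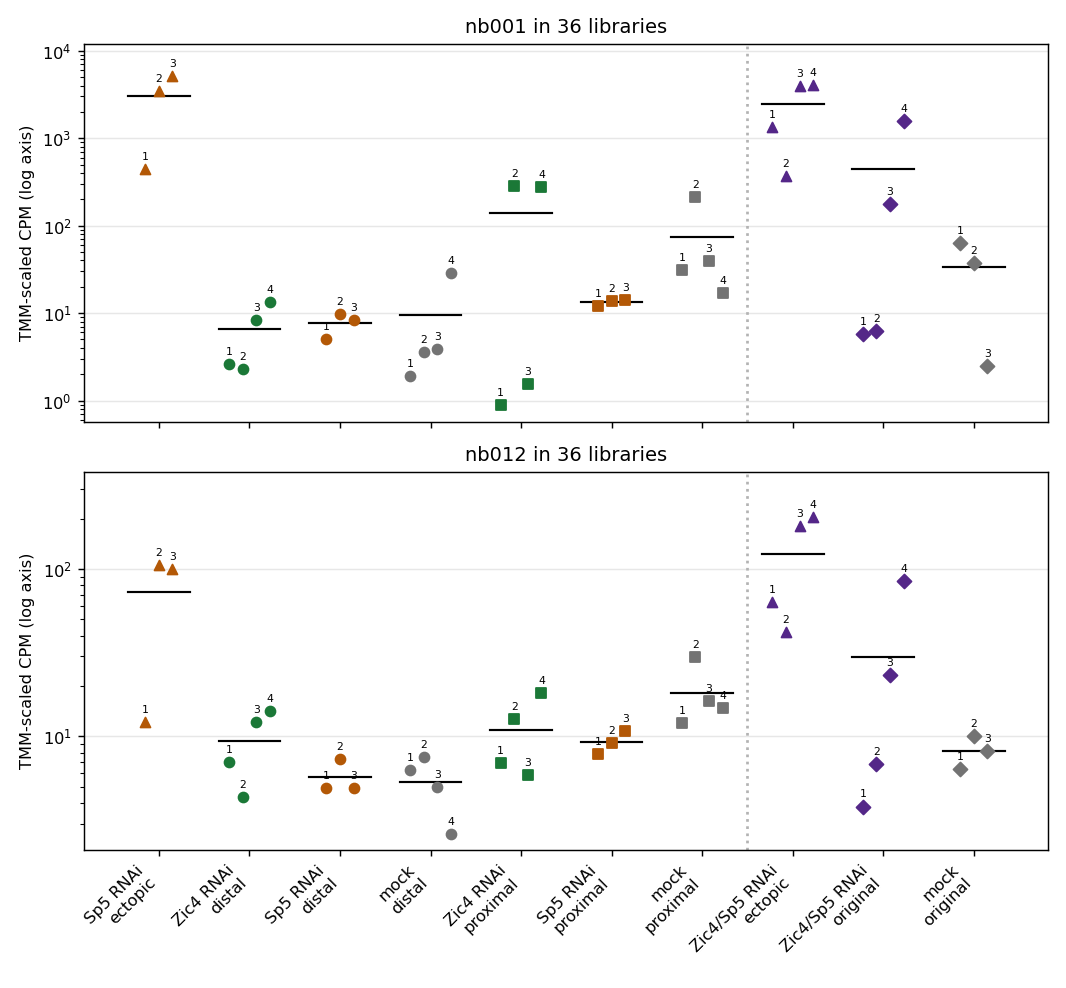
TMM-scaled CPM of nb001 and nb012 on a log axis, with 1 point per library, groups along the horizontal axis and a bar at the mean of each group; the dotted line separates the 2 sets of libraries. Both genes are highest in the ectopic groups, and nb001 spreads from 5.82 to 1578 CPM in original tentacles of Zic4/Sp5 RNAi animals.

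In ectopic tentacles of Zic4/Sp5 RNAi animals, nb001 was at 1328, 369, 3963 and 4109 CPM. In original tentacles of the same treatment it was at 5.82, 6.19, 175 and 1578 CPM, and in original tentacles of mock animals at 62.5, 37.0 and 2.5 CPM. The ectopic libraries all lay above the mock libraries, and 30.3% of 14742 genes were called in that contrast. The log2 fold change of nb001 between ectopic and mock tentacles was 6.17 (standard error 2.14), with means of 2442 ± 1882 CPM (SD, n = 4) in ectopic tentacles and 34 ± 30.1 CPM (SD, n = 3) in mock tentacles.

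nb012 was at 63.6, 41.8, 180 and 203 CPM in ectopic tentacles of Zic4/Sp5 RNAi animals. It was at 3.81, 6.82, 23.3 and 84.8 CPM in original tentacles of this treatment. In mock tentacles it was at 6.39, 10.0 and 8.14 CPM. All 4 ectopic libraries lay above the mock libraries. The log2 fold change between ectopic and mock tentacles was 3.90 (standard error 1.06), with means of 122 ± 81.1 CPM (SD, n = 4) and 8.18 ± 1.81 CPM (SD, n = 3).

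Original tentacles of Zic4/Sp5 RNAi animals did not behave as 1 group. Replicates 1 and 2 held both genes within or below the mock range, replicate 3 lay between mock and ectopic tentacles, and replicate 4 lay inside the ectopic range. The log2 fold change of original tentacles of Zic4/Sp5 RNAi animals over mock tentacles was 3.70 (standard error 1.88) for nb001 and 1.87 (standard error 0.97) for nb012, and for both genes the groups overlapped. Without replicate 4 these values were 0.87 and 0.46. Of all genes, 4.1% were called in this contrast, that is 604 genes. Their number was 42 without mock replicate 1, 1441 without Zic4/Sp5 RNAi original replicate 2, and from 62 with the complexity covariate described further on to 1883 by DESeq2. In ectopic against original tentacles of Zic4/Sp5 RNAi animals, the log2 fold change was 2.47 (standard error 1.58) for nb001 and 2.03 (standard error 0.86) for nb012, again with overlap. Without original replicate 4 they were 5.29 and 3.43.

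The levels of nb001 within a group differed by large factors. Its ectopic libraries differed up to 11.7-fold in Sp5 RNAi animals and 11.1-fold in Zic4/Sp5 RNAi animals, and those of nb012 up to 8.66-fold and 4.86-fold. In both treatments the library lowest in nb001 was also the lowest in nb012, replicate 1 for Sp5 RNAi and replicate 2 for Zic4/Sp5 RNAi. By count, nb001 ranked 11th of all genes in Zic4/Sp5 RNAi ectopic replicate 4, with 59649 reads, and 19th in Sp5 RNAi ectopic replicate 3, where it took its highest share, 0.484% of the counts. In mock distal replicate 1 it ranked 12088th, with 15 reads.

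In animals treated against Zic4 or Sp5 alone, original tentacles held nb001 at low levels. nb001 reached at most 14.0 CPM in 12 of 14 libraries, and the other 2 were Zic4 RNAi proximal libraries. Zic4 RNAi proximal parts held nb001 at 0.880, 282, 1.53 and 279 CPM. Replicates 2 and 4 lay above the highest mock proximal library, and replicates 1 and 3 lay below the lowest. The high values rested on 2167 and 2081 reads and the low ones on 10 and 13 reads. nb012 did not split as widely there, at 6.95, 12.7, 5.89 and 18.2 CPM, and its 2 highest libraries were again replicates 2 and 4. For Zic4 RNAi against mock proximal parts, the log2 fold change was 0.91 (standard error 1.2) for nb001 and -0.74 (standard error 0.49) for nb012. The value of nb001 turned to -1.40 with limma voom, was 0.04 with the replicate number as a block, and ranged from 0.33 without Zic4 RNAi replicate 2 to 2.30 without mock proximal replicate 2. The groups overlapped for both genes, and 32.7% of all genes were called.

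Zic4 RNAi distal parts held nb001 at 2.59, 2.30, 8.32 and 13.4 CPM and nb012 at 7.06, 4.36, 12.2 and 14.1 CPM. Against mock distal parts the log2 fold changes were -0.35 (standard error 1.34) for nb001 and 0.74 (standard error 0.51) for nb012, with overlap for both. For nb001 the sign depended on mock distal replicate 4, the mock distal library highest in this gene, and the value was 1.06 without it. In this contrast 3.5% of all genes were called.

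In Sp5 RNAi proximal parts all 3 libraries lay below all 4 mock proximal libraries for both genes after TMM scaling. The share of all genes that lay apart in this way was not counted. For nb001 the gap was narrow, at 14.0 CPM in the highest Sp5 RNAi library and 16.8 CPM in the lowest mock library. Without TMM scaling the groups overlapped for both genes. Sp5 RNAi replicate 3 then held nb001 at 14.2 CPM and nb012 at 10.9 CPM. The lowest mock values were 11.8 CPM (nb001, replicate 4) and 9.51 CPM (nb012, replicate 1). The log2 fold changes were -2.49 (standard error 1.45) for nb001 and -0.97 (standard error 0.56) for nb012, and 6.78% of all genes were called. Without mock proximal replicate 2, the mock library highest in both genes, they were -1.10 and -0.62. With the complexity covariate the direction of nb001 turned, at 0.68. In Sp5 RNAi distal parts the log2 fold changes were -0.10 (standard error 1.42) and 0.04 (standard error 0.55), with overlap for both genes, and 2.26% of all genes were called. The value of nb001 was 1.32 without mock distal replicate 4.

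Along the tentacle of mock animals, nb012 was lower in all 4 distal libraries than in all 4 proximal libraries, with a log2 fold change of -1.71 (standard error 0.52). nb001 averaged 9.51 ± 12.8 CPM (SD, n = 4) in mock distal and 74.6 ± 91.4 CPM (SD, n = 4) in mock proximal parts, a log2 fold change of -3.17 (standard error 1.36). Its groups overlapped through distal replicate 4, which held 28.6 CPM. The value of nb001 was -4.59 without that library, -1.79 without mock proximal replicate 2 and -0.57 with the complexity covariate. Of all genes, 30.2% were called in this contrast.

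**Figure D2:**
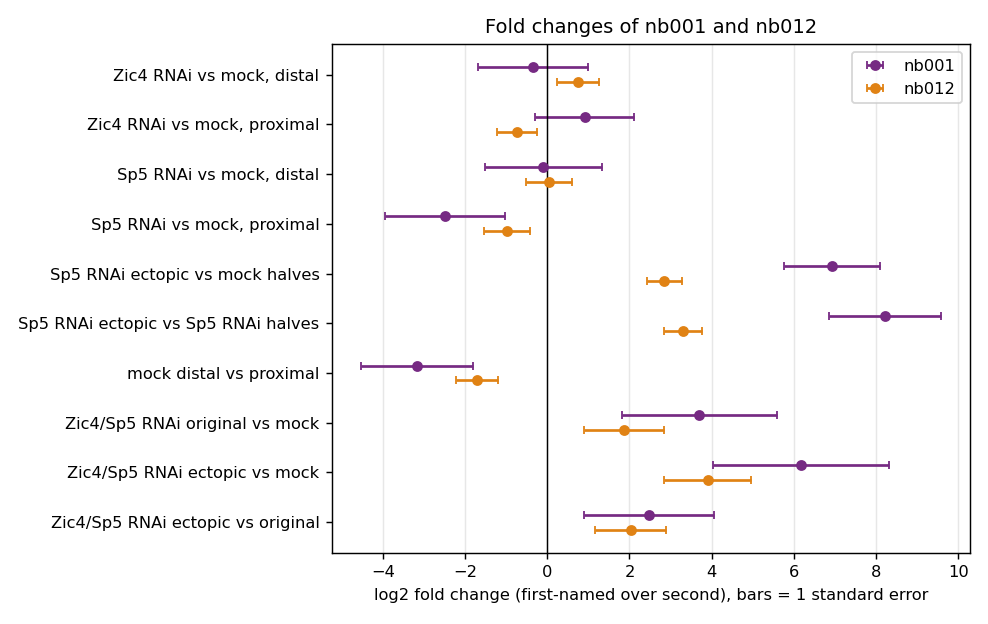
Log2 fold changes of nb001 and nb012 in 10 comparisons, the first-named group over the second, with bars of 1 standard error. The 3 comparisons of ectopic tentacles with mock or Sp5 RNAi original tentacles give the highest values for both genes, from 6.17 to 8.22 for nb001 and from 2.85 to 3.90 for nb012.

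A covariate for library complexity, the percent of counts in the 10 most abundant genes, moved several of these values. In the second set this percent did not overlap between ectopic tentacles of Zic4/Sp5 RNAi animals (9.24 to 11.3) and mock tentacles (13.9 to 14.7), so complexity and treatment cannot be told apart there. The same holds for Zic4/Sp5 RNAi original (11.1 to 13.8) against these mock tentacles, for Zic4 RNAi proximal (10.7 to 13.8) and Sp5 RNAi proximal parts (13.4 to 16.2) against mock proximal parts (17.2 to 23.1), and for Sp5 RNAi distal (11 to 13.0) against mock distal parts (13.2 to 17.7). The percent did overlap between Zic4 RNAi distal (11.2 to 13.5) and mock distal parts, and between mock distal and mock proximal parts. The overlap of the mock parts came through mock distal replicate 4 alone, at 17.7%, the mock distal library highest in nb001. In Sp5 RNAi ectopic tentacles (11.2 to 14.9) the percent overlapped that of mock distal but not of mock proximal parts. With the covariate, the log2 fold change of Zic4/Sp5 RNAi ectopic over mock tentacles was 0.85 (standard error 2.74) for nb001 and 0.79 (standard error 1.5) for nb012. In Sp5 RNAi ectopic tentacles against mock parts it was 10.08 (standard error 2.27) for nb001 and 2.74 (standard error 0.80) for nb012, and against the Sp5 RNAi parts 8.96 (standard error 1.41) and 3.28 (standard error 0.50). For Zic4 RNAi proximal parts against mock it was 4.97 (standard error 2.61) for nb001 and -0.91 (standard error 1.05) for nb012.

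Ordered by mean log2 CPM, the groups of nb001 ran from Zic4 RNAi distal (2.44), mock distal (2.49) and Sp5 RNAi distal parts (2.95) through Sp5 RNAi proximal parts (3.76), mock original tentacles (4.22), Zic4 RNAi proximal (4.33) and mock proximal parts (5.53) to Zic4/Sp5 RNAi original (5.84), Zic4/Sp5 RNAi ectopic (10.72) and Sp5 RNAi ectopic tentacles (10.96). The order runs across both sets of libraries, which were scaled together. Neighbours in the order differed by more than the larger of their standard deviations at 2 steps, between Sp5 RNAi distal and Sp5 RNAi proximal parts and between Zic4/Sp5 RNAi original and ectopic tentacles. For nb012 the lowest groups were mock distal (2.39) and Sp5 RNAi distal parts (2.56) and the highest were Sp5 RNAi ectopic (5.67) and Zic4/Sp5 RNAi ectopic tentacles (6.64). The other 6 groups lay from 3.06 to 4.12, and only the step from Sp5 RNAi distal parts to mock original tentacles exceeded the spread.

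Reads of nb001 per read of nb012 did not stay in 1 ratio. The ratio was 36.2, 33.0 and 51.5 in ectopic tentacles of Sp5 RNAi animals, and 20.9, 8.84, 22.0 and 20.2 in those of Zic4/Sp5 RNAi animals. It was 1.30 to 1.53 in Sp5 RNAi proximal parts and 1.02 to 1.71 in Sp5 RNAi distal parts. In mock animals it was 1.14 to 7.11 in proximal parts, 0.306 to 11 in distal parts and 0.307 to 9.80 in undivided tentacles. In Zic4 RNAi proximal parts replicate 2 had 22.1, just above the highest ectopic library of Zic4/Sp5 RNAi animals, and replicate 4 had 15.3, inside the range of those libraries. Replicates 1 and 3 had 0.127 and 0.260. A ratio between 2 genes also carries their lengths, so only its change between libraries is read here.

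The levels of both genes were correlated over libraries. Pearson's r of their log2 CPM was 0.885 over 36 libraries and 0.855 without the 2 libraries farthest from the median of nb001. Since the ectopic libraries stand apart, the values within each kind are the ones to read. These were 0.863 over the 7 ectopic libraries (Spearman's rho 0.750) and 0.748 over the other 29 (rho 0.672). For deviations from the group means, pooled over groups, r was 0.712. It did not hold in every group: mock distal replicate 4 was the highest of its group in nb001 and the lowest in nb012, and so was replicate 1 among the mock original tentacles. The points share library depth and scaling, and the labels do not say whether libraries of 1 treatment share animals.

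**Figure D3:**
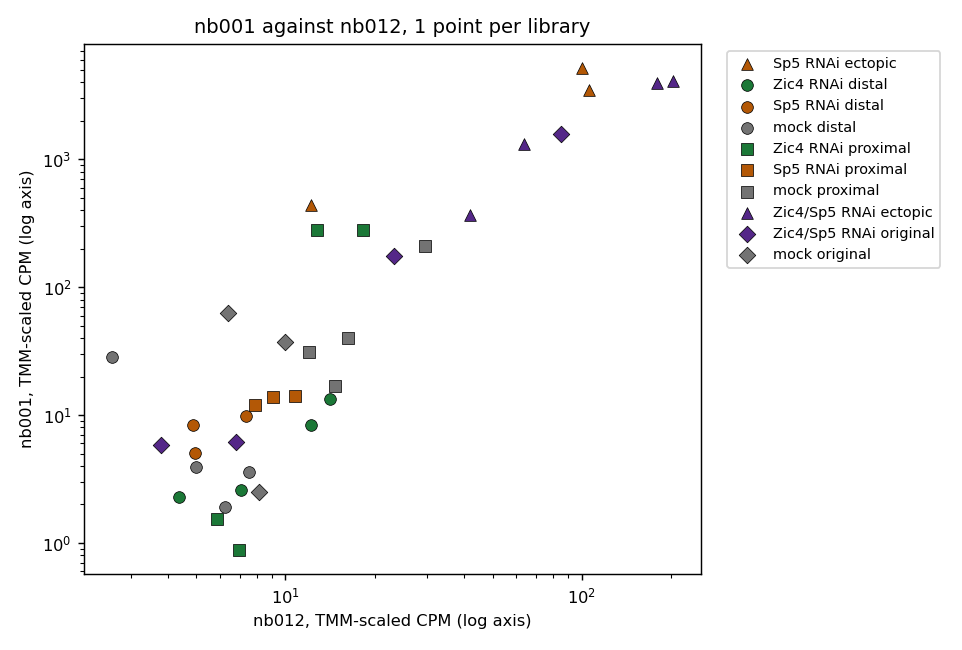
nb001 against nb012 in TMM-scaled CPM on log axes, with 1 point per library, colours for treatments and markers for tissues. The 7 ectopic libraries and Zic4/Sp5 RNAi original replicate 4 lie in the upper part, with nb001 from 369 to 5165 CPM, and Zic4 RNAi proximal replicates 2 and 4 have 282 and 279 CPM of nb001 at 12.7 and 18.2 CPM of nb012.

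Both genes were set beside 8 other genes of the nematocyte lineage that could be matched by name. These are nb035, nb039b and nb-042 of the same naming series, nowa (a protein of the nematocyst wall), LOC100212904 and LOC100209638 (nematogalectin and a nematogalectin-related gene, proteins of the nematocyst), and the regulators LOC100215172 (CnASH, an achaete-scute factor of differentiating nematocytes in Hydra) and zic1 (of the ZIC zinc finger family, of which a Hydra member is known from early nematoblasts). It was not established whether zic1 shares reads with the RNAi target. No gene of the list of mature nematocytes was matched, nor any of dividing cells or nerve cells. Of the 8 lineage genes, 4 matched the spellings first planned, and the lists were chosen with earlier results of these data known. The calls of these genes therefore do not test the label of nb001 and nb012.

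In ectopic tentacles of Sp5 RNAi animals, 6 of the 8 lineage genes rose against mock parts, 1 fell and 1 was not called, beside 18.6% of all genes called higher and 16.8% called lower. nb-042 had 42.8, 353 and 686 CPM in ectopic tentacles and at most 9.64 CPM in the mock parts (log2 fold change 6.54, SE 0.80, edgeR adjusted p 1.57e-06). nb039b had 30.9, 242 and 533 CPM in ectopic tentacles and at most 8.48 CPM in the mock parts (log2 fold change 6.5, SE 0.60, edgeR adjusted p 1.4e-08). nb035, a gene with few reads, rose with a log2 fold change of 5.93 (edgeR adjusted p 1.13e-06). As for nb001 and nb012, the lowest ectopic library was replicate 1 for each of these 3 genes.

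The capsule genes rose as well in the Sp5 RNAi ectopic tentacles, though less evenly. LOC100212904 was at 94.8 ± 78.6 CPM (SD, n = 3) in ectopic tentacles and at a mean of 4.71 CPM in the mock parts (log2 fold change 5.14, SE 0.98, edgeR adjusted p 3.01e-04), and LOC100209638 at 62.9 ± 48.6 CPM and 2.59 CPM (log2 fold change 4.54, SE 0.56, edgeR adjusted p 6.47e-07). nowa had 10.7, 67.8 and 111 CPM in ectopic tentacles and 4.82 to 32.5 CPM in the mock parts (log2 fold change 1.87, SE 0.42, edgeR adjusted p 0.00103), and its edgeR adjusted p was 0.0606 without ectopic replicate 3. The regulator CnASH fell, with 5.63, 11.3 and 15.1 CPM in ectopic tentacles and 17.4 to 30.5 CPM in the mock parts (log2 fold change -1.14, SE 0.28, edgeR adjusted p 0.00244). zic1 was not called, at 0.609, 15.1 and 33.3 CPM in ectopic tentacles and 10.8 to 47.8 CPM in the mock parts. The median log2 fold change was 4.84 over the 8 genes and 0.04 over all genes tested.

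Against the Sp5 RNAi parts, the same 6 genes rose in ectopic tentacles, with log2 fold changes from 2.10 for nowa to 7.17 for nb-042, beside 12.8% of all genes called higher and 14% called lower. CnASH was not called there, with a log2 fold change of -0.56 (edgeR adjusted p 0.156), nor was zic1, at -0.63 (edgeR adjusted p 0.494). The median over the 8 genes was 5.97, against 0.02 over all genes. This contrast and the one with the mock parts use the same 3 ectopic libraries.

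In ectopic tentacles of Zic4/Sp5 RNAi animals, 4 of the 8 genes rose against mock tentacles and 4 were not called, beside 14.8% of all genes called higher and 15.5% called lower. The called genes were nb039b (359 ± 317 CPM in ectopic, n = 4, and 2.94 ± 1.56 CPM in mock tentacles, n = 3, as mean ± SD; log2 fold change 6.92, edgeR adjusted p 0.0272), nb035 (log2 fold change 6.25, edgeR adjusted p 0.0126), LOC100209638 (log2 fold change 4.8, edgeR adjusted p 0.0113) and nowa (log2 fold change 3.38, edgeR adjusted p 0.0272). nb-042 and LOC100212904 missed the threshold, with log2 fold changes of 6.33 (edgeR adjusted p 0.0919) and 5.75 (edgeR adjusted p 0.0587). nb-042 was at 231, 8.06, 526 and 634 CPM in ectopic tentacles and at 8.57, 3.94 and 0.463 CPM in mock tentacles, so that ectopic replicate 2 lay among the mock libraries. CnASH and zic1 were not called either, at log2 fold changes of 0.07 and 0.17. The count of 4 calls depended on single libraries: it was 0 without mock replicate 1, 2 without mock replicate 2, 1 without mock replicate 3 and 2 without ectopic replicate 3 or 4. It was also 2 with limma voom and 0 with the covariate for library complexity. The median over the 8 genes was 5.28, against 0.05 over all genes.

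None of the 8 genes was called in original tentacles of Zic4/Sp5 RNAi animals against mock tentacles by edgeR's quasi-likelihood test, though 5 had an unadjusted p under 0.05, and 3 were called with DESeq2. The median log2 fold change was 3.67, against 0.06 over all genes. As for nb001 and nb012, replicates 3 and 4 lay above replicates 1 and 2 for nb039b and LOC100209638. nb039b was at 2.65, 1.90, 13.5 and 306 CPM in original tentacles of Zic4/Sp5 RNAi animals and at 4.64, 2.62 and 1.57 CPM in mock tentacles. LOC100209638 was at 9, 4.55, 28.5 and 108 CPM in the RNAi libraries and at 4.20, 4.92 and 4.16 CPM in the mock libraries. nb-042 was high in replicate 4 alone, at 329 CPM, and at 1.36 CPM in replicate 3, where nb001 was at 175 CPM. Between these original tentacles and the ectopic ones of the same treatment, 0% of the genes tested passed the threshold by edgeR (0 genes), against 1306 by DESeq2 and 3079 at an unadjusted p under 0.05. Without original replicate 4, edgeR called 2095 genes, 5 of the 8 lineage genes among them. With all libraries, 0 of these 8 had an unadjusted p under 0.05, and 0 were called by DESeq2.

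None of the 8 genes was called by edgeR in the 4 comparisons of Zic4 RNAi or Sp5 RNAi parts with mock parts, nor between distal and proximal parts of mock tentacles. Of all genes, 32.7% were called in Zic4 RNAi proximal, 3.5% in Zic4 RNAi distal, 6.78% in Sp5 RNAi proximal and 2.26% in Sp5 RNAi distal parts, each against mock, and 30.2% between the mock parts. An unadjusted p under 0.05 was reached by 1 gene in Sp5 RNAi against mock proximal parts and by 1 in distal against proximal mock parts, and DESeq2 called 1 gene in each of these contrasts and 0 in the other 3. Their median log2 fold change was -0.74 in Zic4 RNAi proximal, -0.16 in Zic4 RNAi distal, -0.72 in Sp5 RNAi proximal and -0.08 in Sp5 RNAi distal parts, each against the mock part, and -0.92 in distal against proximal parts of mock tentacles. nb035 had at most 3 counts in every library of a group in 4 of these 5 comparisons, so its part in those medians is a fitted value and not a measured fold. The split of nb001 in Zic4 RNAi proximal parts was seen in part among them. nb-042 was at 7.28 and 21.4 CPM in replicates 2 and 4, against 1.06 and 1.88 CPM in replicates 1 and 3, and LOC100212904 at 5.20 and 3.48 CPM against 0.352 and 0 CPM. nowa went the other way in 1 library, with its lowest value, 6.70 CPM, in replicate 4.

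**Figure D4:**
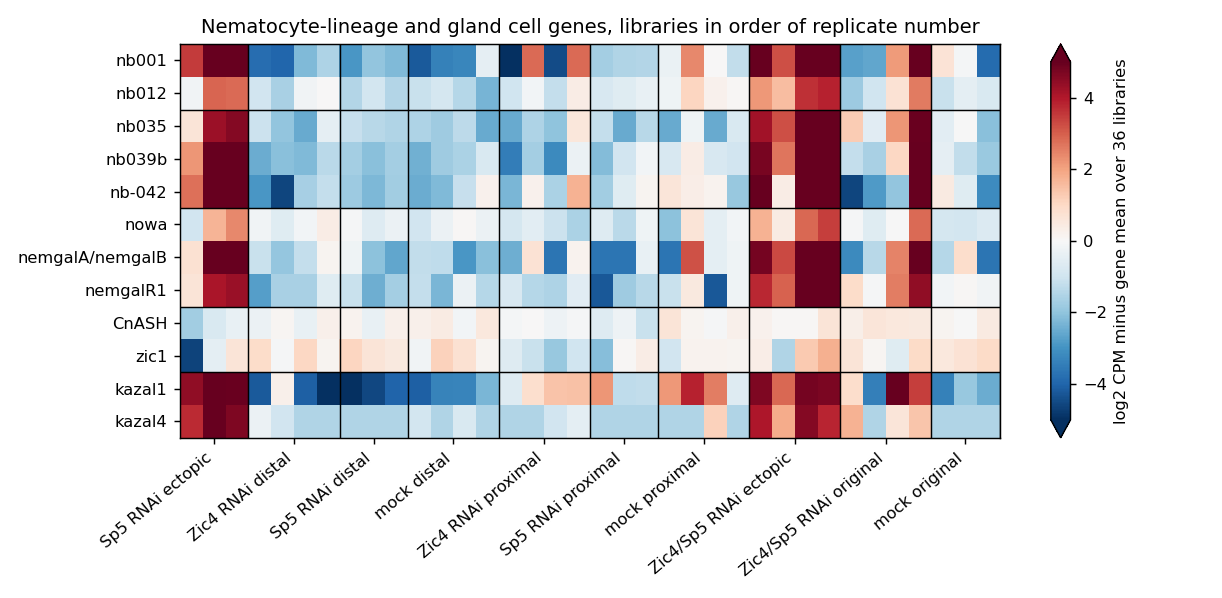
Log2 CPM of nb001, nb012, the 8 other nematocyte-lineage genes and 2 gland cell genes in 36 libraries, as the difference from each gene's mean, with colours limited to the range from -5 to 5. The rows nemgalA/nemgalB and nemgalR1 are LOC100212904 and LOC100209638. The nb series and the capsule genes are high in most ectopic libraries and in Zic4/Sp5 RNAi original replicate 4. They are less so in Sp5 RNAi ectopic replicate 1 and Zic4/Sp5 RNAi ectopic replicate 2. CnASH and zic1 were not called higher in either ectopic group against mock.

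Genes of other cell types moved with these results. Both matched genes of gland cells, kazal1 and kazal4, rose in ectopic tentacles of each treatment. kazal1, a serine protease inhibitor, had log2 fold changes of 5.28 in Sp5 RNAi ectopic tentacles against mock parts (edgeR adjusted p 1.01e-04) and 6.98 in Zic4/Sp5 RNAi ectopic against mock tentacles (edgeR adjusted p 0.0121). kazal4 was at least 20.2-fold and at least 40.6-fold higher, against a floor of 3 counts per mock library. The summed level of both was 483 to 814 CPM in Sp5 RNAi ectopic tentacles, 13.6 to 312 CPM in mock proximal and 1.15 to 4.17 CPM in mock distal parts. In the second set it was 161 to 615 CPM in Zic4/Sp5 RNAi ectopic, 1.77 to 742 CPM in Zic4/Sp5 RNAi original and 1.84 to 5.58 CPM in mock tentacles. kazal1 did not follow nb001 library by library: among original tentacles of Zic4/Sp5 RNAi animals it was highest in replicate 3, at 741 CPM, and it stood at 473 CPM in Sp5 RNAi ectopic replicate 1, the ectopic library of that treatment lowest in nb001. The part of these cells in the levels of nb001 and nb012 was not tested.

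Of 4 tentacle and battery cell genes, all 4 fell in Sp5 RNAi ectopic tentacles against mock parts, 2 in Sp5 RNAi ectopic tentacles against the Sp5 RNAi parts and 3 in Zic4/Sp5 RNAi ectopic against mock tentacles, beside 16.8%, 14% and 15.5% of all genes called lower. Against the Sp5 RNAi parts the log2 fold change was -2.39 for Alx (LOC100201806) and -0.96 for hywnt5a, which fell, and -0.06 for the annexin LOC100203975 (edgeR adjusted p 0.927) and -0.48 for hywnt8 (edgeR adjusted p 0.310), which were not called. Against mock, the homeobox gene Alx had log2 fold changes of -3.06 in Sp5 RNAi (edgeR adjusted p 1.53e-07) and -2.66 in Zic4/Sp5 RNAi ectopic tentacles (edgeR adjusted p 0.00304). The call of the annexin LOC100203975 against mock parts turned to a log2 fold change of 0.37 with a covariate for library complexity. hywnt5a was at 92.1 CPM in Sp5 RNAi ectopic tentacles, 328.7 CPM in mock distal and 109.5 CPM in mock proximal parts. Its ectopic libraries (77.05 to 104.3 CPM) all lay inside the mock proximal range (75.1 to 149.6 CPM). They overlapped the Sp5 RNAi proximal parts (90.94 to 118.7 CPM) and lay below the Sp5 RNAi distal parts (278.5 to 371.5 CPM). The annexin was at 3230 to 3593 CPM in these ectopic tentacles, inside the mock distal range (2018 to 7676 CPM) and below the mock proximal range (7078 to 17180 CPM). Alx and hywnt8 lay below every mock library of divided tentacles. In the second set hywnt5a was at 84.3 CPM in Zic4/Sp5 RNAi ectopic and 144 CPM in mock tentacles. The summed level of 2 stem cell and germ line genes was 468 to 488 CPM in Sp5 RNAi ectopic tentacles, 226 to 540 CPM in mock proximal and 178 to 387 CPM in mock distal parts. In the second set it was 273 to 417 CPM in Zic4/Sp5 RNAi ectopic and 177 to 205 CPM in mock tentacles. Of these genes, LOC100213798 was called higher in Sp5 RNAi ectopic tentacles against mock parts (log2 fold change 1.14, edgeR adjusted p 2.86e-04) and against Sp5 RNAi parts (0.68, edgeR adjusted p 0.0395). piwil1 was not (edgeR adjusted p 0.136 and 0.0852). Both were called higher in Zic4/Sp5 RNAi ectopic against mock tentacles (edgeR adjusted p 0.0104 and 0.0049). Of all genes, 18.6%, 12.8% and 14.8% were called higher in these contrasts. The 1 matched gene of the basal disk, CnNK-2 (LOC100214228), was at 0 counts in most original libraries and reached at most 4.22 CPM in any library, and was called higher in both ectopic groups.

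Over all 36 libraries, the patterns most like those of nb001 and nb012 were sought among the 10656 genes that averaged 5 CPM or more, by the mean of the 2 Pearson correlations of log2 CPM. The closest was LOC100200194, with r of 0.975 to nb001 and 0.926 to nb012 and a mean of 655 CPM in the 7 ectopic libraries and 21.1 CPM in the 11 mock libraries. LOC100197391 came next (mean r 0.938) and was the closest to nb012 alone, at 0.946, ahead of the gene with identifier 101235129, at 0.939. LOC105843986 (0.936), LOC100209382 (0.931), LOC100212471 (0.930), LOC101236347 (0.922), nb039b (0.919) and LOC100207247 (0.916) followed. Among the named lineage genes, nb039b ranked 7th, LOC100212904 21st, nb-042 26th, nb035 45th, LOC100209638 97th and nowa 146th. kazal1 ranked 159th at a mean r of 0.749. CnASH and zic1 had mean r of -0.031 and 0.048. For deviations from the group means, r to nb001 and nb012 was 0.212 and 0.291 for CnASH and 0.284 and 0.593 for zic1. Of the 8 closest genes, 6 stayed among the closest 8 when the likeness was taken over deviations from the group means, and none ranked below 12th.

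In the gene order of the RefSeq assembly HydraT2T_AEP, which may not be the build behind the counts, the second gene on one side of nb001 is LOC100204377. Its level followed nb001 with r of 0.906 over 36 libraries, at a mean of 1216 CPM in the 7 ectopic libraries and 114 CPM in the other 29. This r spans ectopic and other libraries, and values within each kind were not taken. For comparison, nb-042 ranked 14th in likeness to nb001 alone, with r of 0.914. Whether the place of LOC100204377 beside nb001 matters was not tested. The other 3 of the 4 nearest protein-coding genes of nb001 had no matching identifier in the count table, so their levels could not be compared. Of the 3 neighbours of nb012 with counts, LOC105849368 had r of 0.567, LOC100208496 of 0.406 and LOC100197972 of -0.17.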

How the data were processed

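Total RNA of tentacles was amplified as cDNA by SmartSeq2, made into libraries by Tn5 tagmentation and PCR, and sequenced, per the labels' protocols. The labels mention no molecular identifiers, so reads are not independent molecules, and counting floors cover counting error only. bcl2fastq and STAR 2.5.0 were used, per the submitters' processing notes. The counting program, the genome build, and the handling of shared reads and of strand are not given in the sources used here, so values of related or overlapping genes are uncertain. The authors deposited raw read counts per gene, with no normalization, for 36 libraries and 22608 genes, and 2221 of the genes had no read in any library. Identifiers were matched to a RefSeq gene table of assembly HydraT2T_AEP (9547 matched), which was used only for names and gene order. Sequences of nb001 and nb012 were not used here.

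Library sizes were scaled by TMM over all 36 libraries (edgeR 4.0.16, R 4.3.3). The 25 libraries of divided tentacles and the 11 of whole tentacles were fitted apart by edgeR's robust quasi-likelihood test with group as the only factor. Genes were filtered by filterByExpr, which left 14442 and 14742 genes. P-values were adjusted by Benjamini-Hochberg over all genes tested, with calls made under 0.05, and standard errors were derived from the F statistic. Sp5 RNAi ectopic tentacles were set against distal and proximal parts at equal weight. Folds against a group with at most 3 counts in every library are bounds at 3 counts per library. Log2 CPM used a prior count of 2. The fits were tested on simulated data.

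Members and gene lists were chosen with earlier results of these data known. A few spellings (nb039b, the nematogalectins, zic1 and the annexin) were added by name once the table was at hand. Named were both members, all matched genes of their name series, up to 2 called genes with the largest rise and 2 with the largest fall in the lineage lists of each comparison, and the 8 genes most like both members by mean r and the 2 most like each. Other lineage and marker genes were given because they complete their lists and were chosen after their values were seen. The alternatives tried were TMM within each set, DESeq2 size factors, no filter, DESeq2 1.42.0, limma 3.58.1 voom, a fit of the compared groups alone, a complexity covariate, a replicate block and leaving out each library. Replicate numbers were not used as pairs in the main fits. Deviations of same-numbered libraries from their group means correlated at a median of -0.027 in the divided set and 0.078 in the whole set. For libraries with unlike numbers the medians were -0.01 and -0.022. In the whole set 5 of 10 same-numbered pairs and 8 of 30 other pairs correlated over 0.1, so these few values do not decide on pairing.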

Additional observations from a re-analysis of the deposited data

Results flagged for a closer look

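Of 60 groups of 4 libraries examined, 4 held a library whose log2 CPM lay far from the other 3, and chance gives about 1 in 20 such groups. None concerned nb001 or nb012. nowa was high in Zic4/Sp5 RNAi original replicate 4, at 150 CPM, the library in which nb001 and nb012 were also highest of that group. In mock proximal parts, nb-042 was low in replicate 4, at 1.46 CPM, and zic1 was low in replicate 1, at 10.8 CPM. nb039b was high in mock proximal replicate 2, at 8.48 CPM, the mock proximal library highest in nb001 and nb012. The causes were not tested.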

How the results depend on the processing

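nb001 and nb012 kept the sign of their fold changes in ectopic tentacles against mock or original tentacles under every alternative run. With the complexity covariate, the log2 fold change of nb001 was 10.08 in Sp5 RNAi ectopic tentacles against mock parts, 1.57 in Sp5 RNAi distal, 0.68 in Sp5 RNAi proximal, 1.21 in Zic4 RNAi distal and 4.97 in Zic4 RNAi proximal parts, each against mock, and -0.57 in mock distal against proximal parts. For Zic4/Sp5 RNAi against mock tentacles it was 0.85 (ectopic) and 0.09 (original) for nb001 and 0.79 (ectopic) and -0.10 (original) for nb012, and 0 lineage genes were called in ectopic tentacles. The annexin LOC100203975 turned to 0.37 in Sp5 RNAi ectopic tentacles and 0.27 in Zic4 RNAi proximal parts with that covariate. With the replicate block, original Zic4/Sp5 RNAi tentacles against mock gave -0.46 for nb001 and 0.30 for nb012, ectopic against mock gave 4.21 for nb001 and 3.00 for nb012, and ectopic against original gave 4.67 for nb001. The block also turned nb001 to 0.84 in Sp5 RNAi distal and 0.02 in Zic4 RNAi distal parts and left 0.04 in Zic4 RNAi proximal parts, each against mock. The labels do not say whether equal numbers mark paired libraries. The block moved no count of called lineage genes by over 1.5 times. With limma voom the log2 fold change of nb001 changed sign in Zic4 RNAi proximal (-1.40) and distal parts (0.20) and in Sp5 RNAi distal parts (0.86), all against mock. DESeq2 called 1 lineage gene in mock distal against proximal parts, 1 in Sp5 RNAi proximal parts and 3 in original Zic4/Sp5 RNAi tentacles. A fit of the compared groups alone called 1 in Zic4 RNAi proximal parts, and voom called 2 in Zic4/Sp5 RNAi ectopic tentacles. Other than through the construction of each alternative, the cause was not tested.

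Leaving out 1 library at a time, the log2 fold change of nb001 ranged from 6.30 to 7.64 (Sp5 RNAi ectopic against mock parts), 7.59 to 8.73 (against Sp5 RNAi parts), 5.62 to 6.95 (Zic4/Sp5 RNAi ectopic against mock), 2.06 to 5.29 (ectopic against original), 0.87 to 4.48 (original against mock), 0.33 to 2.30 (Zic4 RNAi proximal), -0.92 to 1.06 (Zic4 RNAi distal), -2.83 to -1.10 (Sp5 RNAi proximal), -0.50 to 1.32 (Sp5 RNAi distal) and -4.59 to -1.79 (mock distal against proximal). In the same order, nb012 ranged from 2.48 to 3.35, 2.94 to 3.81, 3.54 to 4.18, 1.66 to 3.43, 0.46 to 2.23, -1.10 to -0.39, 0.49 to 0.99, -1.12 to -0.62, -0.18 to 0.23 and -1.90 to -1.36. Called lineage genes ranged from 6 to 7, 6 to 6, 0 to 4, 0 to 5 and 0 to 2 in the first 5 comparisons, and from 0 to 1 in Zic4 RNAi proximal and in mock distal against proximal parts. Pearson's r of nb001 and nb012 over 36 libraries ranged from 0.872 to 0.909. Among all genes, the calls ranged over the alternatives from 11 to 5254 in Zic4 RNAi proximal (4723 reported), 238 to 759 in Zic4 RNAi distal (505 reported), 66 to 1460 in Sp5 RNAi proximal (979 reported) and 182 to 601 in Sp5 RNAi distal parts (326 reported), each against mock. They ranged from 471 to 4726 in mock distal against proximal parts (4356 reported), 2755 to 5413 in Sp5 RNAi ectopic tentacles against mock parts (5102 reported), 24 to 6652 in Zic4/Sp5 RNAi ectopic tentacles (4461 reported) and 62 to 1883 in Zic4/Sp5 RNAi original tentacles against mock (604 reported). The lowest came with the complexity covariate, except in Sp5 RNAi distal parts. Leaving out 1 library, they fell as low as 106 in Sp5 RNAi distal (without its replicate 3), 260 in Sp5 RNAi proximal (without its replicate 3) and 280 in Zic4 RNAi distal parts (without mock distal replicate 2), and 2326 in Zic4/Sp5 RNAi ectopic tentacles (without mock replicate 1), and rose to 531 in Sp5 RNAi distal parts (without mock distal replicate 1).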
